A study of Sus scrofa with 8 samples.

Results

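Of 20679 protein-coding genes in the gene annotation deposited for this study of pig airway submucosal glands, 505 (2.44%) shared at least 100 exon bases with another gene on the same strand. The genes were chosen by these shared bases: all exons of a gene were merged, and the merged exons were intersected with those of every other gene on the same sequence and strand. Sharing of exon bases is therefore what defined the genes and is described here without a test. The 505 genes formed 270 pairs, and the pairs joined into 252 separate sets of genes.

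The annotation served 8 libraries of 3′ single-cell RNA sequencing, 4 from wild-type and 4 from CFTR-/- newborn pigs (Sus scrofa), 1 library per animal. The CFTR-/- animals lack the chloride channel that is defective in cystic fibrosis, and all glands were dissected from the trachea after the surface epithelium had been scraped away. The annotation holds no value for a single library, so nothing below differs between the genotypes or bears on the level of any gene. Count matrices were not analysed here, cell types could not be checked against markers, and the depth per library is unknown.

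Neighbouring genes on 1 strand can share exons when transcription of the first continues into the second and the joint transcript is spliced, when 2 proteins are read from 1 messenger RNA, or when several first exons are spliced to common last exons, as in the clustered protocadherins. A predicted model can also join 2 genes that are not joined in cells. In 3′ single-cell RNA sequencing most reads fall near the 3′ end of a transcript, and a read that lies in exons of more than 1 gene on its strand is by convention counted for none of them.

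Sequences from 4 kinds of sharing show what the shared bases are. All were read from Sscrofa11.1, 5′ to 3′ on the strand of the genes, with start codons, stop codons or the last bases of an intron in capitals. The first set gives bases that are coding in both genes and in the same frame, which was found for 2 pairs. TMIGD3 encodes a membrane protein with an immunoglobulin domain and ADORA3 the adenosine A3 receptor. The first 200 of their common coding bases lie at chr4:108856748-108856947 on the plus strand. The capital ATG of this stretch starts the coding sequence of a TMIGD3 transcript and lies inside the coding sequence of ADORA3. TWF2 encodes the actin-binding protein twinfilin 2 and TLR9 a receptor for microbial DNA. The first 200 of their common coding bases lie in 3 exons within chr13:34364572-34370824 on the minus strand.
TMIGD3/ADORA3: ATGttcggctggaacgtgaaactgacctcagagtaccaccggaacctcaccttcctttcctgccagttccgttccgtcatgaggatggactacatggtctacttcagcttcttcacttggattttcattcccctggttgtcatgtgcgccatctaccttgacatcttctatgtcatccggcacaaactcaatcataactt
TWF2/TLR9: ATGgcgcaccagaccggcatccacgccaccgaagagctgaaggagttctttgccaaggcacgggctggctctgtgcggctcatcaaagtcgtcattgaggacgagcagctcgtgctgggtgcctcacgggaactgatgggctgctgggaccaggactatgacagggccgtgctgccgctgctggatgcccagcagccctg

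The second set gives a place where 1 coding sequence stops just before the next one starts. VEPH1 encodes a protein with a lipid-binding PH domain that is expressed in the ventricular zone of the brain, and CCNL1 encodes cyclin L1, a regulator of splicing. On chromosome 13, minus strand (chr13:97002404-97002431), 4 bases separated the stop codon of VEPH1 from the start codon of CCNL1.
VEPH1 to CCNL1: gcagctcgcTGAgactATGgcgtccggg

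The third set comes from loci known to give 2 proteins. PYURF and PIGY had identical exons (1315 bases), and the PYURF stop codon stood 89 bases before the PIGY start codon. PIGY is a subunit of the enzyme that starts the synthesis of the GPI anchor. SNURF and SNRPN come from an imprinted locus, and SNRPN encodes a core protein of the splicing machinery. All 457 exon bases of SNURF were also exon bases of SNRPN, and on 1 transcript 117 bases lay between the coding sequences. MTCP1 and CMC4 shared 532 bases on chromosome X, and 1 MTCP1 transcript carried both coding sequences with 467 exon bases between them. The end of the first and the start of the second coding sequence follow for PYURF (chr8:130529056-130529085, plus strand) and PIGY (chr8:130529175-130529204, plus strand), for MTCP1 (chrX:125377354-125377383, minus strand) and CMC4 (chrX:125375666-125375695, minus strand), and for SNURF and SNRPN on an unplaced scaffold.
PYURF end: aagaagcaagaagaaatgaagcagcacTAG
PIGY start: ATGtttctgtctcttcccacgctgactgtc
MTCP1 end: ctgttgcttaagcttttgcctgatgatTAA
CMC4 start: ATGccgcagaaggatccgtgccagaaacaa
SNURF end: ttcttagctgagacaccaaggggtggtTAA
SNRPN start: ATGaccgtgggaaagagcagcaagatgctg

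The fourth set gives the 2 intron ends that all 5 linked protocadherin alpha genes used, at chr2:142653464-142653493 and chr2:142657095-142657124 on the plus strand. Each shows 15 bases of intron followed by 15 bases of the exon that the genes had in common.
first junction: tttgtgattttgcAGccacggcagcccaac
second junction: tctgtgtttactcAGctctgtgcacctgga

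The amount of sharing was uneven. The median pair shared 300 bases (quartiles 136 and 1314), and the range ran from 101 to 9821 bases. The median member shared 12.1% of its exon bases (quartiles 4.60% and 34.4%). In 27 members every exon base was shared, in 98 members at least 50% were, and in 227 members less than 10% were. Thus a small number of gene models shared every exon base, while many others shared only a small part. A low share did not always mean that genes met at their edges. SNRPN shared 1.74% of its exon bases but held all exon bases of SNURF.

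**Figure D1:**
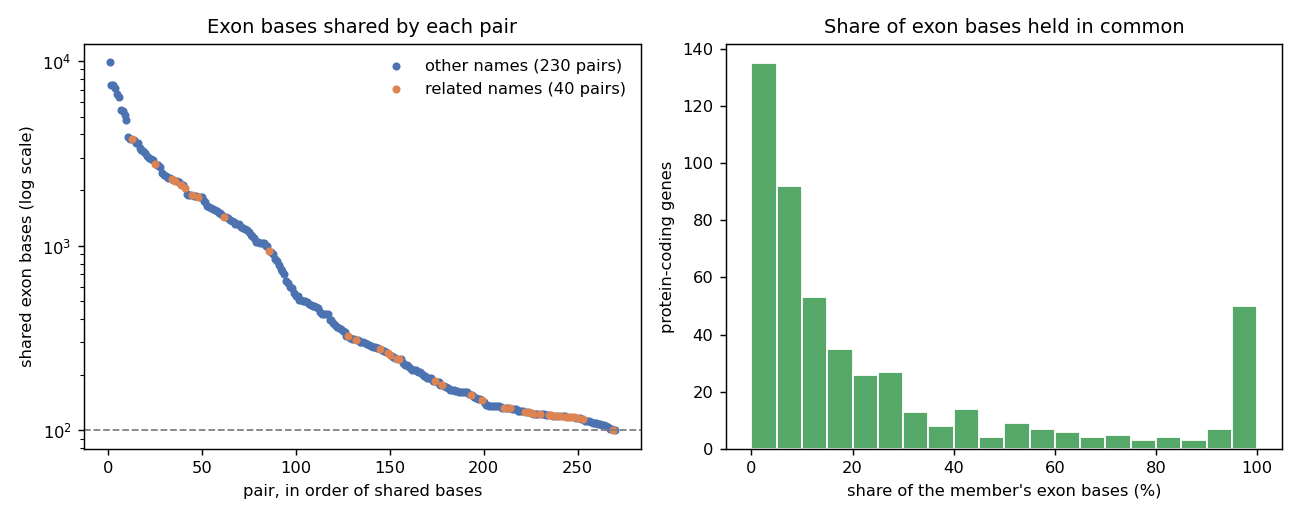
Left, exon bases shared by each of the 270 pairs in falling order on a log scale, with the 100-base bound dashed and pairs of related names in orange. Right, number of the 505 genes by the percentage of their exon bases that they shared. Most genes sit under 20%, and a second group sits at or near 100%.

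The rule cuts through a continuous series of values. Just inside the bound lay RAB30/PRCP with 104 shared bases, C14H5orf52/SLC35E4 and LOC106510602/LOC100513741 with 102 each, and LOC106505222/GTPBP4 and LOC100156472/LOC110260312 with 101 each. Just outside lay CPNE1/RBM12 with 98, VRK3/LOC100524378 with 97, LOC100737660/LOC110259670 with 96 and SLA-1/LOC100513601 with 95. In all, 109 pairs with a protein-coding gene shared between 1 and 99 bases, these 4 included.

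The largest sharing was between MIA, RAB4B and EGLN2 on chromosome 6. MIA encodes a small secreted protein of cartilage and melanoma cells, RAB4B a GTPase of endosome recycling, and EGLN2 an oxygen-sensing prolyl hydroxylase. All 9821 exon bases of RAB4B were also exon bases of MIA, where they made up 81.5% of the exons, and MIA and RAB4B had 10 introns in common. All 1830 exon bases of EGLN2 lay within the exons of both others. One MIA transcript carried the whole coding sequences of MIA and RAB4B with 954 exon bases between them. The sharing of MIA lay in 1 of its 2 transcripts, and the other shared no base with RAB4B or EGLN2, so both of these pairs fell under 100 bases without that transcript. The 3′ end of a gene was taken from the transcript that ends farthest 3′, and the last 500 exon bases so taken were shared between all 3 genes.

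Among the other named pairs with the most shared bases, TRIM13, a ubiquitin ligase, and its neighbour KCNRG, a potassium channel regulator, shared 7396 bases (90.4% of KCNRG). CCDC159 and PLPPR2, a lipid phosphatase-related membrane protein, shared 7368 bases. SWSAP1, a DNA repair factor, shared 904 bases with PLPPR2 and 271 with CCDC159. PIGZ, a mannosyltransferase of GPI anchor synthesis, and NCBP2, a subunit of the nuclear cap-binding complex, shared 7139. In these 3 pairs the last 500 exon bases of the upstream gene were wholly inside the downstream gene, whereas none of the downstream gene's last 500 bases was shared with the upstream gene.

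SOGA3 and KIAA0408 shared 5416 bases. SCARF1, a scavenger receptor, and RILP, a partner of lysosomal RAB7, shared 5365 bases and 16 introns. ADAMTS13, the protease that cleaves von Willebrand factor, held all 5098 exon bases of CACFD1. BSDC1 and FAM229A shared 4773 bases, 99.4% of FAM229A. MBD1, which binds methylated DNA, and CFAP53, a ciliary protein, shared 3890. FILIP1, which binds filamin, and TMEM30A, a subunit of phospholipid flippases, shared 3791. AKAP8L and AKAP8, which anchor protein kinase A in the nucleus, shared 3788 bases, and these were all exon bases of AKAP8. VEPH1 and CCNL1 shared 3751 bases. LYRM7 and CDC42SE2 shared 3609, MEI1 and CCDC134 3580, and HAUS7, a spindle protein, held all 3296 exon bases of the exonuclease TREX2.

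Nearly all partners were themselves protein-coding, but a gene without exons could not be a partner. Of 30390 genes in the deposited file 27378 had exons, and 3012 genes were typed pseudogene. In RefSeq before editing, 13 further pairs met the rule with a gene that has no exons in the deposited file. A protein-coding partner was found for 497 of the 505 members (98.4%), an lncRNA partner for 5 and a transcribed pseudogene partner for 3. The deposited file held 20679 protein-coding genes, 5605 lncRNAs and 72 transcribed pseudogenes. Most members had 1 partner (488 genes), 12 had 2, and 5 had more. The lncRNA partners met LIPT1 (1122 bases, the whole gene), TKTL2 (300), GORASP2 (248), UGDH (227) and GLI4 (164). The partner of LIPT1, a lipoyltransferase of mitochondria, carried that same product name but was typed as lncRNA. The pseudogene partners met MOGAT1, an acyltransferase of fat synthesis (6384 bases, 99.9% of the gene, with a glycerol kinase pseudogene), LOC102158906 (1551) and LOC110256637 (213).

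By arrangement, 195 of the 270 pairs (72.2%) were staggered along the strand, 74 (27.4%) had 1 gene inside the span of the other, and PYURF/PIGY had the same span. Pairs with 1 gene inside the other shared a median of 1168 bases, against 249 bases for staggered pairs. In 51 pairs both genes ended within 10 bases of each other, and in 7 pairs they started within 10 bases. At least 1 identical intron was found in 97 pairs (35.9%), with a median of 3 and at most 20, in TRAIP/UBA7. Of the 51 pairs with a common 3′ end, 39 had an identical intron.

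The coding sequences themselves were mostly kept apart. In 223 pairs the coding sequence of the upstream gene ended before that of the downstream gene began, in 17 pairs the order was the other way round, in 20 pairs 1 coding sequence lay inside the span of the other, and in 2 pairs they interlocked. Where 1 coding sequence followed the other, the genomic distance between them had a median of 4104 bases. In 51 pairs (18.9%) a single transcript carried both coding sequences whole, separated by a median of 1021 exon bases. Short distances of this kind were also found for CRIPT/SOCS5 (67 bases), LOC100515579/RPP14 (119), LRRC43/B3GNT4 (127) and TAF6L/TMEM179B (135). RPP14 is a subunit of ribonuclease P, and LOC100515579 was named as a mitochondrial hydroxyacyl-thioester dehydratase. These 2 genes shared 6633 bases, 99.6% of LOC100515579 and 97.3% of RPP14.

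**Figure D2:**
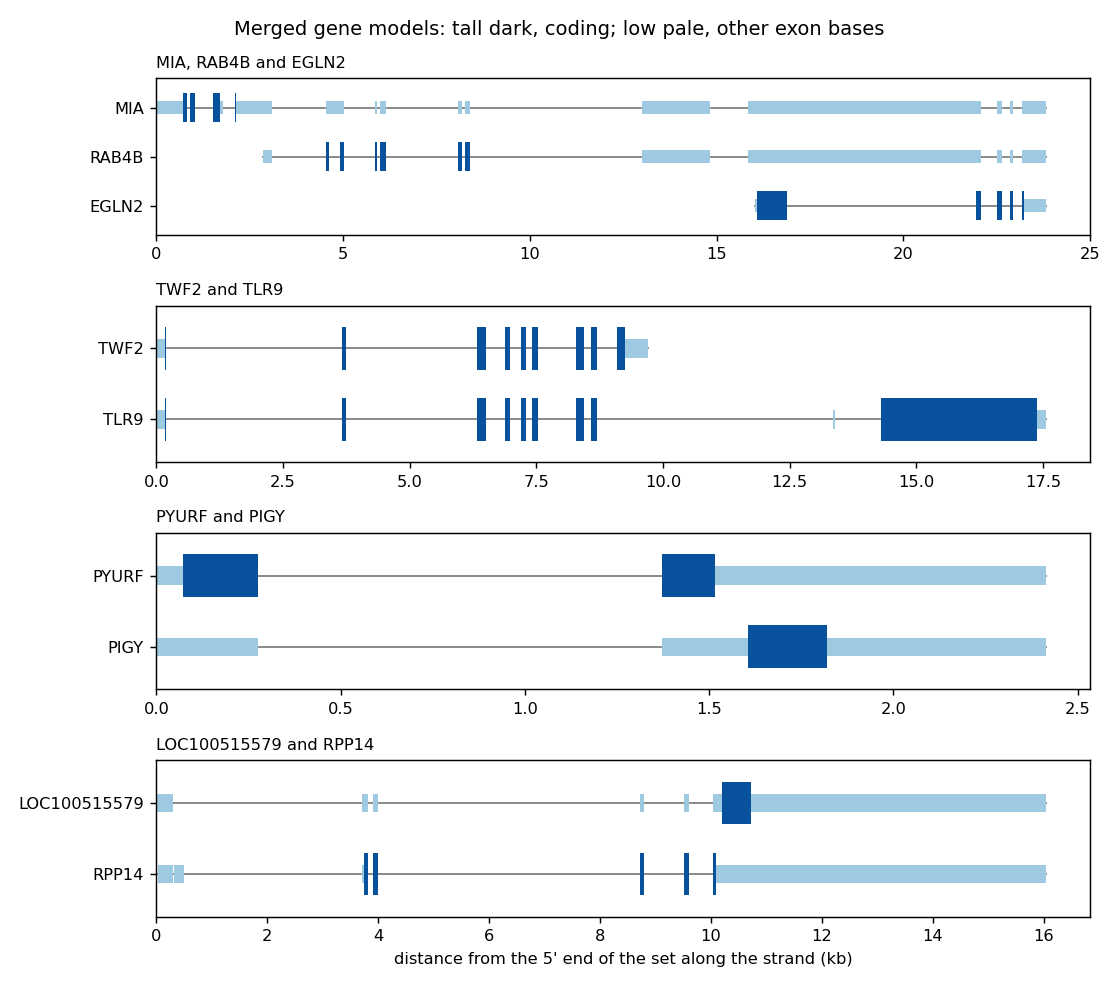
Merged exons of 4 sets of genes along their strand, in kilobases from the 5′ end of each set; tall dark blocks are coding and low pale blocks are other exon bases. The coding blocks of MIA, RAB4B and EGLN2 follow one another while their exons run to 1 end, TWF2 and TLR9 have coding blocks in common, and PYURF and PIGY have the same exons with separate coding blocks.

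Counted by base, the shared sequence was seldom coding in both genes. Of 263553 shared bases summed over pairs, 1481 (0.562%) were coding in both. UTR in both genes made up 45.4%, coding sequence of 1 gene with UTR of the other 33.7%, and bases from non-coding transcripts of either gene 20.3%. The largest single classes were the 3′ UTR of both genes (60470 bases), the 3′ UTR of the upstream with coding sequence of the downstream gene (54575) and the 3′ UTR of the upstream with the 5′ UTR of the downstream gene (53017). When each pair was placed by its largest class, 60 pairs joined upstream coding sequence to downstream 5′ UTR, 55 joined 3′ UTR to 5′ UTR and 53 joined 3′ UTR to coding sequence.

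**Figure D3:**
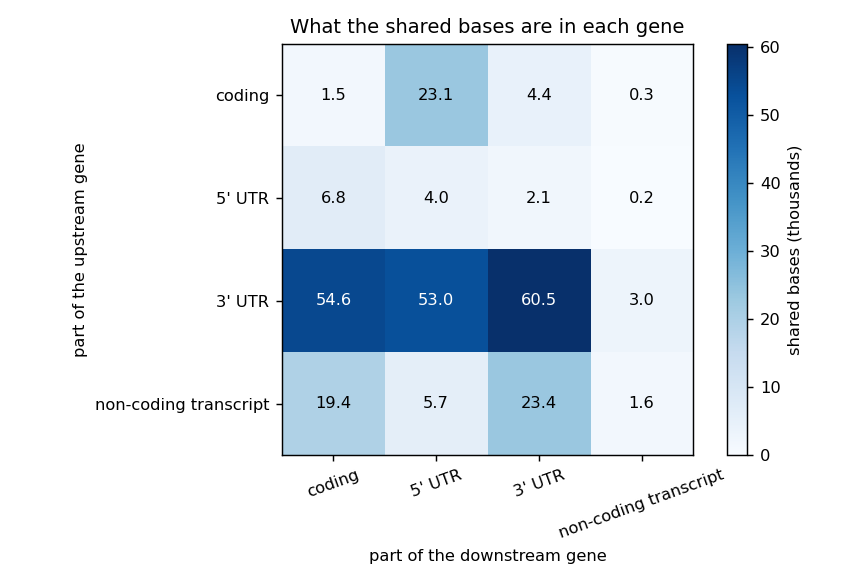
Shared bases in kilobases, by what they are in the upstream gene (vertical) and in the downstream gene (horizontal), summed over 270 pairs. The row for the upstream 3′ UTR holds the 3 largest cells, and the cell that is coding in both genes holds 1481 bases.

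Of the 6 pairs with any base coding in both genes, TWF2/TLR9 had 882, all in 1 frame. TMIGD3/ADORA3 had 522, of which 519 were in 1 frame and none in different frames. Stop codons were left out of the count of frames. In TLR9 the sharing lay in 1 of 2 transcripts: that predicted transcript joined twinfilin coding exons, spliced at 7 introns of TWF2, to the large TLR9 coding exon, while the curated TLR9 transcript shared nothing. In TMIGD3 the sharing also lay in 1 of 2 transcripts, and the common stretch reached the 3′ end of ADORA3. POLR1D, a subunit of RNA polymerases I and III, and LOC106505238 had 26 in-frame bases, fewer than the 30 required to be counted. LOC100621701/PCDHA11 had 43 bases coding in both, of which 40 were read in different frames and none in the same frame.

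At the 3′ end, where reads of this method gather, 175 members (34.7%) shared at least 50% of their last 500 exon bases. Only the transcript ending farthest 3′ gave the window, and the ends of other transcripts were not tried. Over all protein-coding genes the share was 0.846%, and since sharing of exon bases chose the members the difference is no finding about them. The whole window was shared in 118 members and none of it in 251. Taken by pair, 56 pairs shared at least 50% of the window of both genes, 60 that of the upstream gene alone, 14 that of the downstream gene alone, and 140 that of neither. The upstream gene alone was affected in 60 of the 195 staggered pairs and in none of the pairs with 1 gene inside the other. An inner gene ends no later than the outer, upstream gene, so the arrangement itself largely fixes this contrast.

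**Figure D4:**
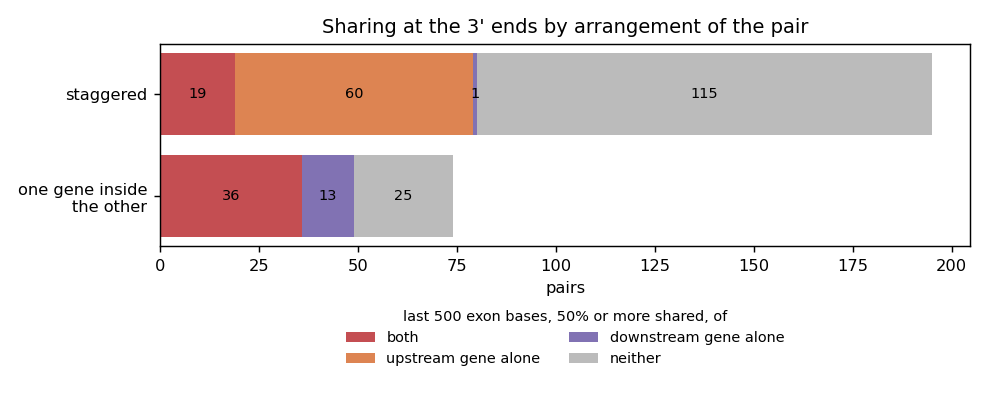
Number of pairs by arrangement and by which gene shared at least 50% of its last 500 exon bases with its partner. Among staggered pairs 60 show the upstream gene alone and 115 neither, and among pairs with 1 gene inside the other 36 show both genes. PYURF/PIGY, with the same span, is left out.

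The number of transcripts behind the sharing differed between pairs. In 87 pairs (32.2%) the shared bases fell under 100 when 1 transcript of a gene with several was left out. MIA/RAB4B, MIA/EGLN2, FILIP1/TMEM30A, TWF2/TLR9, TMIGD3/ADORA3, ATRIP/TREX1, RTEL1/TNFRSF6B and ARNT/CTSK belonged to these. A curated transcript was present for 10.7% of the members and for 19.5% of the other 20174 protein-coding genes. Provisional names, which begin with LOC, made up 21.2% of the members and 19.9% of the other genes. Members had a median of 3788 exon bases and 947 bases of 3′ UTR, beside 3046 and 718 in the other genes, and the same medians of 2 transcripts and 8 exon blocks. The rule counts exon bases, so these lengths are not independent of it.

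Related names were found in 40 pairs (14.8%), which shared a median of 151 bases beside 344 bases in the other 230 pairs. The 5 linked protocadherin alpha genes on chromosome 2 gave 10 of these pairs and formed the only set of more than 3 genes. Protocadherins of the alpha cluster are cell adhesion proteins of neurons, built by splicing a variable first exon to common exons. LOC100621701 (protocadherin alpha-C2) and PCDHA11 shared 2050 bases, 3 introns and a 3′ end. LOC100621803 (alpha-2), LOC100738826 (alpha-6) and LOC102160959 (alpha-13) shared between 118 and 121 bases with each of the others. Their own models ended inside the common exons, and in these 3 genes the common bases were annotated as 3′ UTR, whereas the same bases were coding in LOC100621701.

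Other pairs of related names included the zinc finger genes ZNF19/ZNF23 (2297 bases, all of ZNF23), the phosphate and urate transporters SLC17A2/SLC17A3 (1841), the ubiquitin ligases TRIM17/TRIM11 (937), the homeobox genes HOXA6/HOXA5 (257), the chemokine receptors CCR1/XCR1 (243), the amino acid transporters SLC36A2/SLC36A3 (156), the prostaglandin receptors PTGDR/PTGER2 (125), the volume-regulated anion channel subunits LRRC8B/LRRC8C (118) and the lymphocyte GTPases GIMAP7/GIMAP4 (115). LOC106507512 and LRMP had the same product name, 17 introns in common and 2760 shared bases. Their proteins had only 58 identical residues (11.4% of the shorter), and the coding sequence of LRMP followed that of LOC106507512. Across 262 pairs with 2 proteins, the longest translated proteins were at least 40% identical over the shorter one in 30, of which 25 had related names. The 30 included TWF2/TLR9 (294 identical residues, 84.2%), which have 882 coding bases in common in 1 frame. Its likeness therefore lay in the same bases and not in separate copies. The highest were LOC100526148/SPIN2B, with all 258 residues of the shorter protein identical, and the retinol dehydrogenase copies LOC100626199/LOC100512656, with 315 of 317. Those 2 pairs shared 365 and 324 exon bases, none of them coding in both, so the likeness lay in separate copies of the coding sequence. Identity was measured on proteins only, so whether reads can be told apart between such copies was not tested.

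Only 3 gene models bridged neighbours that did not share a base with each other. C12H17orf100 shared 1302 bases with XAF1, an inhibitor of anti-apoptotic proteins, and 117 with FBXO39. DSPP, which encodes the main phosphoprotein of dentin, shared 1144 bases with DMP1, another matrix protein of bone and dentin, and 122 with NUDT9. LOC106506035 shared 352 bases with the sulfotransferase NDST2 and 143 with the kinase CAMK2G. No member had a hyphenated symbol of the kind given to named readthrough loci.

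Groups of genes were drawn up by gene name, which can miss genes and, as for TMEM, need not mean 1 function. They differed in how often their genes were members, beside 2.44% of all protein-coding genes. Of 36 clustered protocadherins 9 were members, and of 417 zinc finger genes 27 were (6.47%). The 9 protocadherins were the 5 linked alpha genes and the pairs LOC110259669/LOC100737660 (185 shared bases) and LOC110259670/LOC110259518 (176). The counts were 13 of 242 TMEM genes (5.37%), 12 of 355 solute carriers (3.38%), 3 of 59 RAB GTPases (5.08%) and 1 of 4 UDP-glucuronosyltransferases. Olfactory receptors, mostly genes with 1 coding exon, gave 6 of 1627 (0.369%). Cytosolic and mitochondrial ribosomal proteins gave 2 of 170, the mitochondrial MRPL53 and MRPS6. Ubiquitin and proteasome genes gave 1 of 136, and cytokines and chemokines 1 of 80. None of 77 respiratory chain genes, 39 cytochromes P450, 38 keratins, 15 SLA genes or 7 histones was a member. These are counts of annotated models, and the sharing in the protocadherins comes from few loci.

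Of the 401 electrolyte transporters listed by the study 7 were members (1.75%). KCNRG shared 7396 bases with TRIM13, and ASIC3, an acid-sensing sodium channel, shared 1891 with the transporter ABCB8. The potassium channel KCNK4 shared 266 with CATSPERZ and was the 1 listed transporter with at least 50% of its last 500 exon bases shared (53.2%). SLC12A1, the kidney sodium-potassium-chloride cotransporter, shared 224 with CTXN2. The chloride-proton exchanger CLCN7 shared 166 with CCDC154, including 8.80% of its last 500 bases. The potassium channels KCNQ3 and KCNN3 shared 149 with HHLA1 and 113 with PMVK, none of it in their last 500 bases.

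Of 427 host defense genes listed by the study 8 were members (1.87%). DDX41, a sensor of cytosolic nucleic acids, shared 1532 bases with the adaptor DOK3, and GPATCH3 shared 1472 with the GTPase GPN2, in both cases with the whole of the last 500 exon bases. TLR9 shared 1048 bases with TWF2, TRIM11 937 with TRIM17, the exonuclease TREX1 497 with ATRIP, the autophagy enzyme ATG7 192 with HRH1, the antiviral synthetase OAS1 147 with RPH3A, and LOC404703, a beta-defensin precursor, 108 with LOC106504227. In these last 6 genes none of the last 500 bases was shared.

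Of 3279 genes that the study listed as cell type markers, a list chosen on these libraries, 48 were members (1.46%). In 6 of them at least 50% of the last 500 exon bases was shared: ACAP1 (592 shared bases, with KCTD11), CCDC88A (1642, with MTIF2), CIRBP (1731, with C2H19orf24), FILIP1 (3791, with TMEM30A), GLYR1 (511, with ROGDI) and TTYH1 (346, with LENG8). Others, such as the cathepsin CTSK (554, with ARNT), the matrix protein ECM1 (2327, with TARS2) and TGFB1 (127, with LOC110261354), shared bases at their 5′ side and none of the last 500. Each window came from the transcript ending farthest 3′, and other transcripts of the same gene need not share it. Transcripts sharing at least 100 bases with the partner numbered 1 of 4 in FILIP1, 3 of 7 in CCDC88A and 11 of 19 in CIRBP.

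Members were found on every chromosome except Y, from 1.35% of the protein-coding genes of chromosome 15 to 5.22% of those of chromosome 16. On all sequences other than these chromosomes, unplaced scaffolds among them, 12 of 1114 genes (1.08%) were members.

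Fewer genes met the rule in the deposited annotation than in RefSeq before editing by the authors. In the RefSeq annotation of the same build before editing, 557 protein-coding genes met the rule, 52 more than in the deposited annotation. Of these 52, 12 had partners without exons in the deposited file, and RefSeq with the same partner genes gave 545 members. The other 40 formed 20 pairs that shared between 154 and 3292 bases (median 731) before editing. In the deposited annotation 19 of these pairs shared no base and U2AF1L4/IGFLR1 shared 71. Less UTR overlap between genes of the same orientation was a stated aim of the editing, for which the study checked genes expressed in airways. In all 20 pairs at least 1 gene had fewer exon bases than before, and 19 of the 20 held a gene that the study listed as shortened. The exception was TMEM120A/STYXL1, in which STYXL1 fell from 5985 to 3229 exon bases and has no gene line in the deposited file. The largest changes were in TRMT12/RNF139 (3292 shared bases before editing), LRCH4/SAP25 (2545) and ZDHHC1/TPPP3 (2058). TAPBP, which loads peptides onto class I molecules, had shared 448 bases with ZBTB22.

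**Figure D5:**
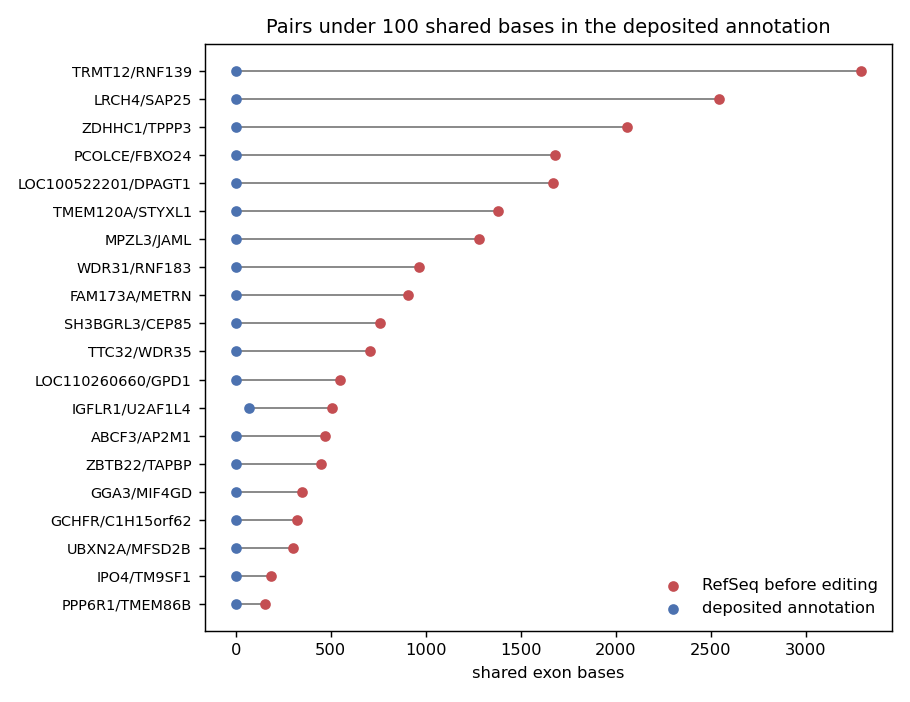
Exon bases shared by 20 pairs in RefSeq before editing (red) and in the deposited annotation (blue). All 20 fall below 100 bases, and 19 fall to 0.

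No gene joined the set through editing, and all 505 members met the rule in RefSeq as well. Exon length differed from RefSeq in 3 members, HOXA5 (195 bases more), SLCO4C1 (214 more) and SHROOM2 (3608 more). Thus 502 of 505 members kept the RefSeq exon length, including MIA, RAB4B and EGLN2.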

How the data were processed

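The authors edited the RefSeq gene models of Sscrofa11.1 (annotation release 106) and used the result as the reference for Cell Ranger (3.0.2 in the submitters' processing notes), 1 file for 8 libraries. The deposited values used here were feature starts and ends in bases and codon phases. The members, the gene lists and the rules for naming genes were chosen with earlier results of these data known.

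Exons and coding segments were merged per gene and intersected between genes on 1 sequence and strand, in Python 3.11.15. A member was a gene typed protein_coding with at least 100 shared bases. The 3′ window was the last 500 exon bases of the transcript ending farthest 3′. Bases counted as in-frame where codon positions agreed (at least 30 for a pair). Of 2 genes, the one with the more 5′ start was upstream. Names were related where their letters before the first digit or their products without numbers agreed. Proteins were translated from the genome and aligned locally with Biopython 1.88. STYXL1 and other genes without a gene line (26) had no type and were not counted as protein-coding. Named were the largest pairs, sets and bridging models, genes near the bound, members of the study's lists, non-coding partners and the largest in-frame pairs. Further pairs in the text were chosen after their values were seen. No p-value was computed. The measures were tested on simulated gene models with known answers (15 of 15 recovered). The closing section gives the alternatives tried.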

Additional observations from a re-analysis of the deposited data

How the results depend on the processing

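Counts were called alike within 1.5 times. The number of members (505) was 695 with a minimum of 1 base and 612 with 50, and moved to 318 with 200 and 200 with 500. It moved to 4 when only coding segments of both genes were used, to 1078 with whole gene spans, introns included, and to 3004 with either strand. It was 497 with protein-coding partners only and 557 in RefSeq before editing. Of alternatives chosen after seeing the data, the longest transcript of every gene left 370 members, and RefSeq with the same partner genes gave 545. The median share of exon bases (12.1%) moved to 42.1% with a minimum of 500 bases. Members sharing their 3′ end (175) lay between 118 and 206 with other windows, shares or partner types, and no other choice of transcript was tried. Bridging models (3) moved to 12 with a minimum of 1 base, and in-frame pairs (2) moved to 4 with a minimum of 1 base and stayed at 2 with 100. Pairs of related names numbered 40, beside 30 pairs with protein identity of at least 40%, of which 25 had related names. No paired analysis was possible because none of the deposited coordinates belongs to a single library. Which reads were lost to the sharing was not tested.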
